A study of Mus musculus with 7 samples.

Results

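The nuclear receptors other than the PPAR and RXR families were examined in mouse duodenum with and without Ppara in the epithelium. They were taken by symbol from a list of 35 receptor genes, and 34 of them had a row among the 14795 genes of the deposited table. Rorb had no row. Of the 34 genes, 28 passed a filter on low values and were compared between genotypes, and the other 6 are given as levels only.

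Nuclear receptors are transcription factors whose ligand-binding domain senses small lipophilic molecules, such as steroids, bile acids, oxysterols, vitamin A and D derivatives and thyroid hormone, and whose DNA-binding domain recognises short hexamer repeats. Many pair with RXR, and so share a partner with PPARα. Others bind as homodimers or monomers, and several have no settled natural ligand. In the intestinal epithelium HNF4 maintains enterocyte genes, FXR answers to bile acids, LXR to sterols, PXR and CAR to foreign compounds, and the vitamin D receptor drives calcium uptake.

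RNA came from the duodenum of male mice after 8 weeks of HFD, 3 of them Ppara lox/lox and 4 Ppara I-KO, killed at 00:00 after food had been withheld from 12:00 and returned at 18:00. Both groups carry the floxed Ppara alleles, and I-KO mice also carry Villin-Cre, whose recombinase is made in the intestinal epithelium and not in muscle, stroma or immune cells, so the lost exons are lost from epithelial cells only. The controls were lox/lox littermates without Cre. The labels give the strain as C57BL/6, and the methods call the background predominantly C57BL6/J. The diet is from the methods, and the labels give neither a diet nor an age. Ppara itself, the targeted gene, had 53.4, 49.3 and 63.2 CPM in lox/lox libraries 1 to 3 and 33.0, 40.6, 47.5 and 69.9 CPM in I-KO libraries 1 to 4. The library labelled I-KO 4 was therefore the highest of all, but the total of a gene counts exons outside the floxed ones and cells that lack Cre as well, and the deletion is not checked by it. Each library held between 20745155 and 25865823 reads on the listed genes, and the levels below are CPM, counts normalised by the authors to library sizes they had adjusted. The epithelial markers summed to between 11075 and 14489 CPM in every library, and all 9 of them had a row. Library I-KO 1 stood apart in 11 pancreatic acinar genes, which summed to 354 CPM there and to between 16.6 and 75.5 CPM elsewhere, and it had the highest sums of the smooth muscle, fibroblast, endothelial, enteric neuron and glia, B and plasma cell and macrophage marker lists. For many receptors that leaving out I-KO 1 or I-KO 4 moved, the value without that library is given below, but not for every one. In whole duodenum, fewer cells of a type and less RNA per cell cannot be told apart.

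Promoter sequence is shown first for 3 receptors on which the comparison turned, namely Nr1h4 (FXR), which had the smallest p, Nr0b2 (SHP), which varied most between mice among the tested receptors, and Rara, whose groups did not overlap. The windows are the 250 bases before a RefSeq transcript start on GRCm38.p6, read in the direction of transcription. Capitals mark a match to the receptor hexamer AGGTCA, or to its reverse complement TGACCT, or to the E-box CACGTG, the palindrome read by clock factors such as CLOCK and BMAL1. The windows lie at chr10:89506659-89506908 on the minus strand for Nr1h4, at chr4:133553126-133553375 on the plus strand for Nr0b2 and at chr11:98937468-98937717 on the plus strand for Rara.
Nr1h4: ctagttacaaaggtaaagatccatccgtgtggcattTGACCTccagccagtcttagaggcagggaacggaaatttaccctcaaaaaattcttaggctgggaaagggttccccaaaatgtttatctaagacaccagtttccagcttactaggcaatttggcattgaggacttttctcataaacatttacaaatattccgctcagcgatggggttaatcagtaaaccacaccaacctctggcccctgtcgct
Nr0b2: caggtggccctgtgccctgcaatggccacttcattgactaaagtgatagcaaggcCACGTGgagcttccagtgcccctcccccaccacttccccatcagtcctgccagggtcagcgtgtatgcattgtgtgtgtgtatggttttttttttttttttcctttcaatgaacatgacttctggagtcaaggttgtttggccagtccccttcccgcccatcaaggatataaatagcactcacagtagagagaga
Rara: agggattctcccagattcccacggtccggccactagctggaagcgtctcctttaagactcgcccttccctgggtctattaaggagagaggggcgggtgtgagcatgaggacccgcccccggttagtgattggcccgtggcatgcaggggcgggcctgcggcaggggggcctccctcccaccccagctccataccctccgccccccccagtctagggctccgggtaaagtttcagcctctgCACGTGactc
The Nr1h4 window is within the gene, upstream of an internal start, and the last bases of the Rara window fall in the first exon of another annotated transcript. The E-box of Rara lies in those last bases. Rara has further windows, starting at 98937446, 98939461 and 98964622 on the same chromosome and strand, which held no such match and are not printed. Relative to the start, the hexamer of Nr1h4 begins at -214 and the E-boxes of Nr0b2 and Rara at -195 and -10.

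Windows were found for 31 of the 34 receptors, 46 in all, with none for Hnf4g, Thra and Nr3c1. Their median GC content was 59.2%, against 52.4% for all 32851 windows of the same length. With both strands searched, the hexamer was in 6 of the 46 windows, of Nr1d2, Nr1h4, Nr5a2, Nr6a1, Rarg and Thrb, and in 14.0% of all windows. The E-box was in 4 of them, of Nr0b2, Nr1i3, Rara and Thrb, and in 6.02% of all. The direct repeat AGGTCANAGGTCA, the arrangement with 1 base between hexamers that PPARα with RXR and HNF4 bind, was in 0 of the 46 and in 0.0335% of all. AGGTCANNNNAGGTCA, with 4 bases between as LXR and thyroid hormone receptors bind with RXR, was in 0 of the 46 and in 0.0152% of all, and both repeats contain the hexamer. A match is only a match of letters in this window.

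The 34 receptors spanned more than 3 orders of magnitude in lox/lox duodenum. Their means were above 100 CPM for 6, from 10 to 100 CPM for 13, from 1 to 10 CPM for 9 and below 1 CPM for 6. Together they summed to 2700, 2703 and 2684 CPM in lox/lox and to 2428, 2741, 2850 and 2856 CPM in I-KO libraries, and the 4 highest, Hnf4a, Vdr, Esrra and Hnf4g, made up 67.9% of the lox/lox mean. Since longer transcripts give more reads, genes were ranked by CPM per kb of exon. Hnf4a led with 171 CPM per kb, followed by its paralogue Hnf4g (107), Vdr (76.6), Esrra (66.0), Nr1i2 (48.1) and Nr1h2 (26.98), and the lox/lox ranges of these 6 did not overlap between neighbours. Next came Nr2f6 (21.6) and Nr1h3 (21.1), Nr1i3 (18.0), Nr1h4 (17.0) and Nr3c1 (16.6 CPM per kb), of which Nr2f6 and Nr1h3, Nr1i3 and Nr1h4, and Nr1h4 and Nr3c1 overlapped. Of the 33 neighbouring pairs in the whole order, 15 overlapped in this way, mostly in the lower part of the order. The 10 highest per kb shared 8 genes with the 10 highest in CPM.

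**Figure D1:**
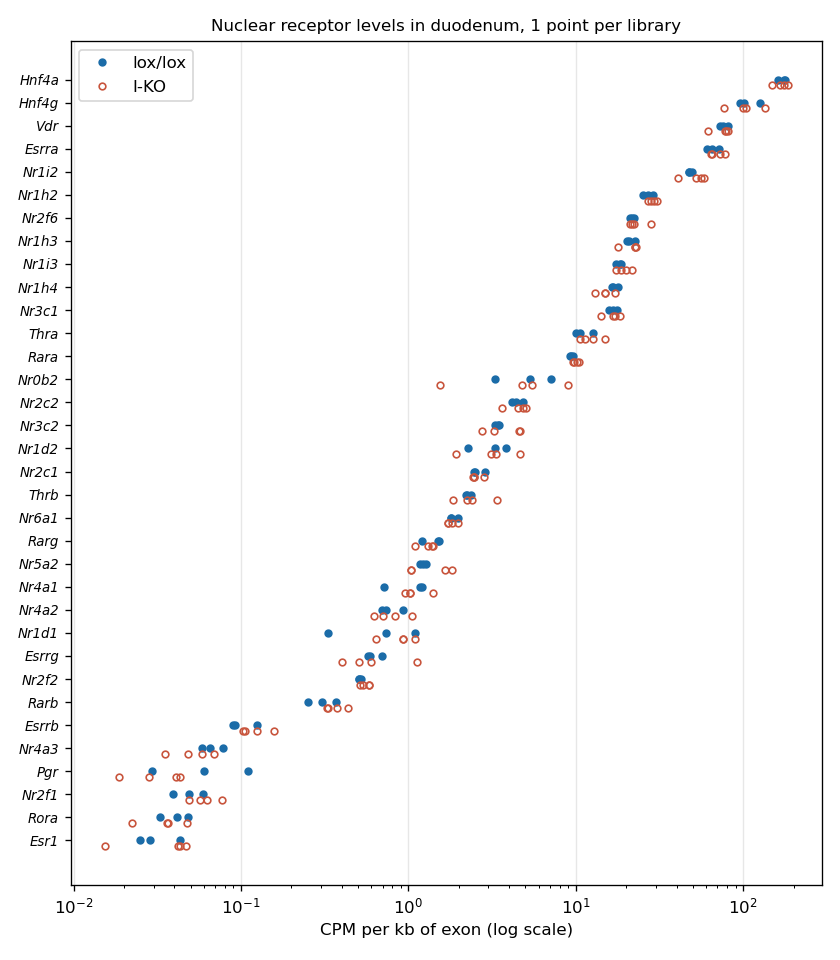
Level of each of the 34 receptors in every library, as CPM per kb of exon on a log scale, ordered by the lox/lox mean. Filled points are the 3 lox/lox and open points the 4 I-KO libraries. Hnf4a is highest at 171 CPM per kb, and the ranges of the genotypes overlap for every receptor but Rara.

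No difference between genotypes was detected for any of the 28 tested receptors. By limma on log2(CPM + 1) with Benjamini-Hochberg adjustment over all genes, 0 of 28 passed an adjusted p of 0.05, where 0.0299% of all 13399 tested genes did, and the smallest adjusted p of a receptor was 0.954. At an unadjusted p of 0.05 the count was also 0 of 28, against 4.74% of all genes. The 4 I-KO libraries lay wholly to 1 side of the 3 lox/lox libraries for 1 receptor of 28, Rara, against 6.19% of all genes. By log2 fold change (I-KO minus lox/lox) 19 receptors were higher and 9 lower, with values from -0.18 for Nr1h4 to 0.28 for Nr1d1 and a median of 0.049, against 0.0017 over all genes. Of the receptors 67.9% were thus higher, and of all tested genes 50.6%. This split became 14 and 14 with column totals as the library size, 13 and 15 without library I-KO 4, 21 and 7 without I-KO 1 and 20 and 8 with a GC index of each library as a covariate. The median size of the change, without its sign, was 0.0862 for the receptors and 0.0818 for all genes.

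These differences were bounded as well as not called. On the log2 scale the 95% confidence interval reached 0.25 to either side at the median receptor, between 0.17 for the tightest and 0.95 for Nr0b2. It lay within ±0.5 for 22 of the 28 receptors (78.6%, against 84.3% of all genes), within ±1 for 27 and within ±0.25 for 4. These intervals are not adjusted for the number of genes, and a change of less than about 0.25 in a single receptor mostly lay within them. The adjusted threshold over all genes was stricter, so larger changes could be missed by it with 3 and 4 mice. Cyp2b10, a target described below, did not pass it at a log2 fold change of 0.59 (adjusted p = 0.761 by limma). The log2(CPM + 1) scale also understates the change of genes near 1 CPM.

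**Figure D2:**
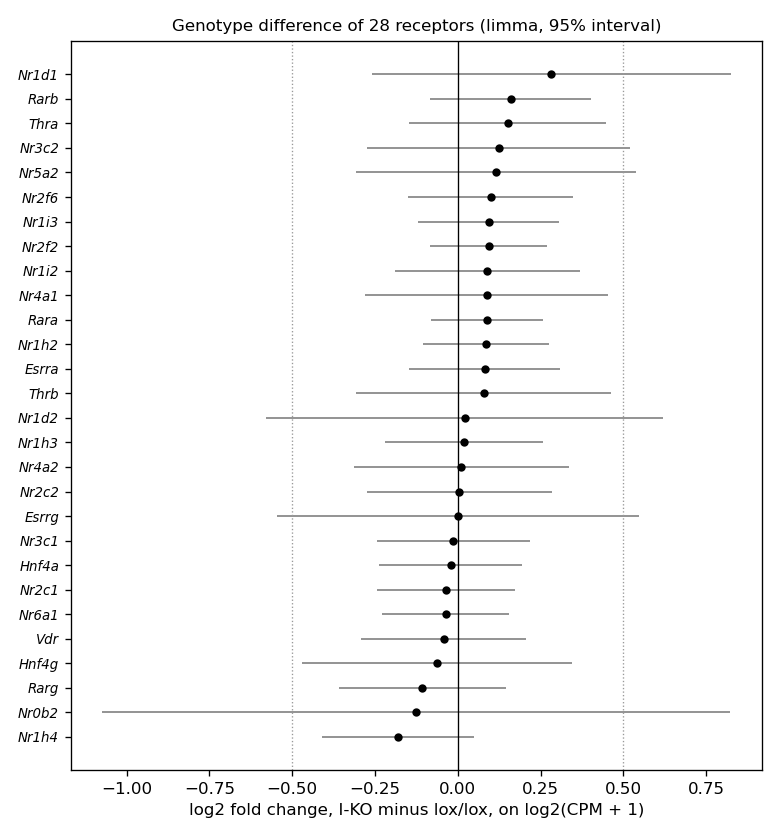
Log2 fold change (I-KO minus lox/lox) of the 28 tested receptors on log2(CPM + 1), with the 95% confidence interval from limma. Dotted lines stand at ±0.5; all 28 intervals cross 0, and Nr0b2 has the widest.

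Among the sensors of lipids, bile acids and xenobiotics, 5 of 9 tested were higher and 4 lower, at a median of 0.019 on the log2 scale and 0 passing at an adjusted or an unadjusted p of 0.05. Hnf4a, which is required for enterocyte identity, had 854, 847 and 779 CPM in lox/lox and 721, 850, 891 and 801 CPM in I-KO libraries. The lox/lox values lay inside the I-KO range, and the log2 fold change was -0.022 with an interval from -0.24 to 0.19, and 0.036 without I-KO 1. Hnf4g, its partner in enterocytes, had 251, 264 and 329 CPM in lox/lox and 201, 264, 273 and 353 CPM in I-KO. Both its lowest and its highest library were I-KO, and the log2 fold change of -0.063 had an interval from -0.47 to 0.34. It was 0.074 without I-KO 1 and -0.20 without I-KO 4.

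Nr1h4 encodes FXR, the bile acid receptor, and the study had named it as a PPARα target. It had 37.7, 41.4 and 38.3 CPM in lox/lox and 34.2, 39.5, 34.2 and 30.1 CPM in I-KO libraries. All I-KO libraries but I-KO 2 were lower than the lowest lox/lox library. The mean was 39.1 ± 2.00 CPM (S.D., n = 3) in lox/lox and 34.5 ± 3.83 CPM (S.D., n = 4) in I-KO, and the log2 fold change was -0.18 (SE 0.10, 95% interval -0.41 to 0.049). This was the lowest value among the receptors, but it did not pass limma (p = 0.109, adjusted p = 0.954) or an exact two-sided permutation test (p = 0.114, where 0.0286 is the smallest p that 35 regroupings of the libraries allow). The log2 fold change was -0.12 without I-KO 4. Without library I-KO 2 its unadjusted p from limma was 0.0358, with an adjusted p of 0.867.

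Nr0b2 encodes SHP, a receptor without a DNA-binding domain that FXR induces and that represses other receptors. It had 8.0, 6.01 and 3.73 CPM in lox/lox and 10.2, 6.17, 5.40 and 1.74 CPM in I-KO libraries. The highest library was 5.86 times the lowest, both of them I-KO, and the means of 5.91 ± 2.14 CPM (S.D., n = 3) and 5.88 ± 3.47 CPM (S.D., n = 4) were close. Its log2 fold change of -0.13 had an interval from -1.07 to 0.82, the widest of the receptors. It was -0.42 without I-KO 1 and 0.26 without I-KO 4.

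The PXR gene Nr1i2 had 127, 121 and 121 CPM in lox/lox and 104, 148, 143 and 133 CPM in I-KO. Library I-KO 1 was the lowest and the other 3 I-KO libraries were the highest of all 7, with a log2 fold change of 0.089 (interval -0.19 to 0.37). Without I-KO 1 it was 0.20 and passed an unadjusted p of 0.05 by limma (adjusted p = 0.981). The CAR gene Nr1i3 had 81.6, 76.4 and 80.8 CPM in lox/lox and 76.2, 81.9, 87.8 and 94.99 CPM in I-KO. The same 3 I-KO libraries were above every lox/lox library, while I-KO 1 was below them, and the log2 fold change was 0.093 (interval -0.12 to 0.30). It was 0.14 without I-KO 1 and 0.040 without I-KO 4. Of the exon bases of Nr1i3, 74.9% also lie in exons of Tomm40l on the opposite strand, and whether the counting used strand is not given in the sources used here. Nr1h2, which encodes LXRβ, had 90.0, 84.7 and 96.8 CPM in lox/lox and 94.1, 90.4, 102 and 97.7 CPM in I-KO, a log2 fold change of 0.085 (interval -0.11 to 0.28). Nr1h3, which encodes LXRα, had 53.1 ± 3.02 CPM (S.D., n = 3) and 54.0 ± 5.92 CPM (S.D., n = 4), and Nr5a2, the crypt receptor LRH-1, had 7.25 ± 0.295 and 8.18 ± 2.45 CPM. The means of Nr1h3 differed by less than either S.D., and those of Nr5a2 by less than the I-KO S.D. only. Nr5a2 had 6.96, 7.55 and 7.23 CPM in lox/lox and 6.08, 9.78, 6.09 and 10.75 CPM in I-KO. In the same order the crypt markers summed to 462, 559 and 470 CPM and to 416, 602, 325 and 650 CPM. A relation between the 2 was not tested. The log2 fold change of Nr1h3 was 0.019, and it was -0.0039 without I-KO 1 and -0.012 without I-KO 4. For Nr5a2 the log2 fold change of 0.12 was 0.23 without I-KO 1 and -0.017 without I-KO 4.

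Of the 6 receptors for vitamins A and D and thyroid hormone, 4 were higher and 2 lower, with a median of 0.083 and 0 passing limma at an adjusted or unadjusted p of 0.05. Vdr, which controls calcium absorption, had 411, 459 and 429 CPM in lox/lox and 349, 446, 439 and 455 CPM in I-KO. I-KO 1 was again the lowest library, and the log2 fold change was -0.042 (interval -0.29 to 0.21). Without I-KO 1 it was 0.047. Rara, the main retinoic acid receptor here, had 42.2, 40.2 and 40.7 CPM in lox/lox and 42.2, 44.2, 45.6 and 42.6 CPM in I-KO. The groups were separated only by 42.16 against 42.20 CPM, and they overlapped with median-of-ratios size factors and with column totals. The log2 fold change of Rara was 0.088 (SE 0.074, interval -0.081 to 0.26), and the exact two-sided permutation test gave p = 0.0571.

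Per kb of exon, Rara stood at 9.40, Rarg at 1.41 and Rarb at 0.308 CPM in lox/lox. Rarg had 6.02 ± 0.787 and Rarb 1.62 ± 0.300 CPM in lox/lox (S.D., n = 3). In I-KO they had 5.51 ± 0.612 and 1.93 ± 0.260 CPM (S.D., n = 4), log2 fold changes of -0.11 and 0.16 whose intervals include 0. That of Rarg was -0.039 without I-KO 4. Of Rarb exon bases, 34.1% are shared with Top2b on the other strand. Thra, the thyroid hormone receptor α gene, had 46.2, 49.0 and 58.2 CPM in lox/lox and 49.1, 58.5, 52.1 and 68.6 CPM in I-KO, a log2 fold change of 0.15 (interval -0.15 to 0.45). Its paralogue Thrb had 16.4, 16.5 and 17.5 CPM in lox/lox and 13.6, 16.5, 17.7 and 25.01 CPM in I-KO. For both, the library labelled I-KO 4 was the highest of all 7. Without it the log2 fold change was 0.060 for Thra and -0.079 for Thrb, where it had been 0.15 and 0.078. Without I-KO 1, Thra was at 0.22 and Thrb at 0.20.

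The clock receptors are repressors (Nr1d1 and Nr1d2, REV-ERBα and β) or activators (ROR) of the same sites. Nr1d2 had 17.8, 20.8 and 12.2 CPM in lox/lox and 10.4, 16.8, 18.1 and 24.9 CPM in I-KO. It varied 2.40-fold over the libraries with both extremes in I-KO, and its log2 fold change of 0.021 had an interval from -0.58 to 0.62. It was 0.24 without I-KO 1 and -0.16 without I-KO 4. Nr1d1 had 3.36, 2.27 and 1.02 CPM in lox/lox and 1.96, 3.38, 2.86 and 2.85 CPM in I-KO. It had the largest log2 fold change among the receptors, 0.28 (interval -0.26 to 0.82), and lox/lox 3 alone lay below every I-KO library. Without lox/lox 3 the log2 fold change of Nr1d1 was -0.019. Without lox/lox 1, the highest control, it was 0.54 and passed an unadjusted p of 0.05 by limma. It was 0.39 without I-KO 1. Rora was below the filter, averaging 0.533 CPM in lox/lox and, in I-KO, 0.465 CPM. All animals were killed at 1 time of day, so these values give no rhythm.

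**Figure D3:**
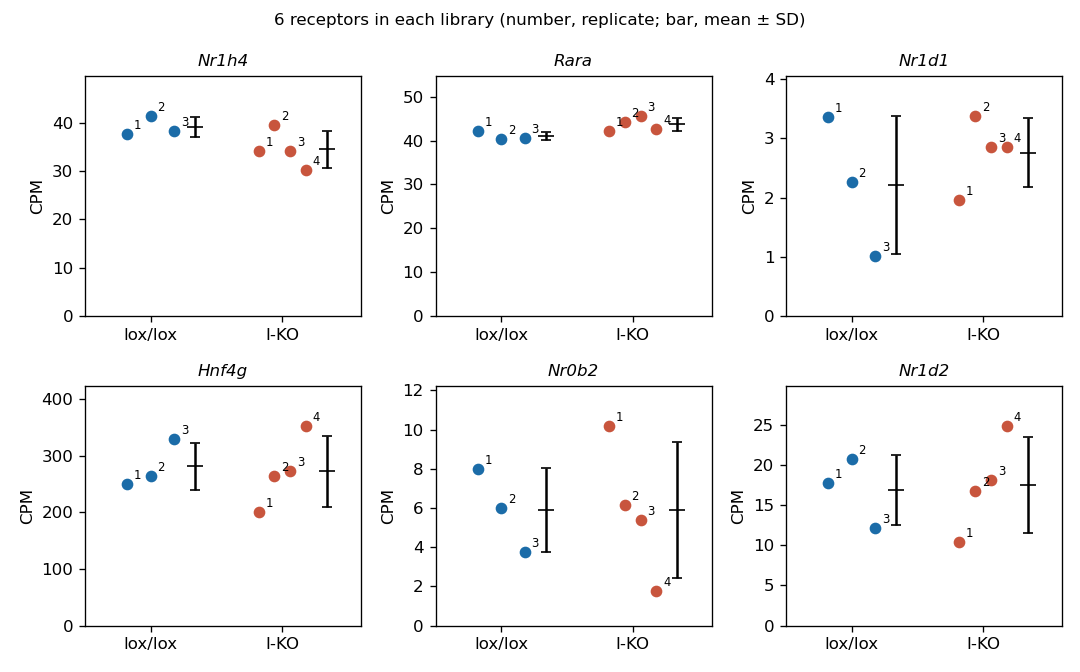
CPM in each library of 6 receptors, Nr1h4, Rara, Nr1d1, Hnf4g, Nr0b2 and Nr1d2, with the replicate number beside each point and the mean ± S.D. of each genotype at its right. All axes start at 0. In Nr0b2 and Nr1d2 both the highest and the lowest library are I-KO, and in Hnf4g as well, at 353 and 201 CPM.

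Among the orphan receptors of the testicular, COUP-TF and germ cell type, 3 of 5 tested were higher and 2 lower, with a median log2 fold change of 0.0038. Nr2c2 (TR4) had 65.6, 62.5 and 72.5 CPM in lox/lox and 54.1, 67.5, 72.6 and 75.6 CPM in I-KO, with a log2 fold change of 0.0038 that was 0.10 without I-KO 1 and -0.054 without I-KO 4. Nr2f6 had 64.2, 65.9 and 62.9 CPM in lox/lox and 84.0, 66.6, 64.3 and 63.0 CPM in I-KO. Library I-KO 1 was above the other 6, which lay between 62.9 and 66.6 CPM. The log2 fold change of Nr2f6 was 0.099, and 0.0060 without I-KO 1. Both genes share exon bases with a gene on the opposite strand, 30.7% of Nr2c2 with Mrps25 and 54.4% of Nr2f6 with Ocel1. Nr2c1 (TR2) had 12.0 ± 1.08 and 11.7 ± 0.862 CPM, Nr6a1 (GCNF) 20.1 ± 1.19 and 19.6 ± 1.24 CPM, and Nr2f2 (COUP-TFII, a gene of stromal and vascular cells) 4.41 ± 0.0700 and 4.78 ± 0.308 CPM in lox/lox (S.D., n = 3) and I-KO (S.D., n = 4). Nr2f1 was listed at between 0.200 and 0.390 CPM.

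Of the steroid receptors, only the corticoid receptors passed the filter. Nr3c1, the glucocorticoid receptor, had 128, 120 and 135 CPM in lox/lox and 109, 128, 131 and 140 CPM in I-KO, a log2 fold change of -0.013 (interval -0.25 to 0.22), and 0.060 without I-KO 1. Nr3c2, the mineralocorticoid receptor, had 22.6, 21.2 and 22.3 CPM in lox/lox and 17.7, 21.1, 29.6 and 30.1 CPM in I-KO. Its I-KO libraries fell on both sides of the narrow lox/lox range, and the log2 fold change was 0.12 (interval -0.27 to 0.52). It was 0.26 without I-KO 1 and 0.019 without I-KO 4. Esr1 and Pgr, the oestrogen and progesterone receptors, averaged 0.440 and 0.567 CPM in lox/lox and 0.503 and 0.280 CPM in I-KO. The 6 receptors under the filter rested on between 3 and 23 reads a library, too few to show a change of modest size.

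The estrogen-related receptors drive mitochondrial genes. Esrra had 314, 287 and 267 CPM in lox/lox and 340, 280, 320 and 286 CPM in I-KO, and its log2 fold change was 0.081 (interval -0.15 to 0.31), and 0.030 without I-KO 1. Per kb of exon in lox/lox it stood at 66.0 CPM, against 0.619 CPM for its paralogue Esrrg and 0.102 CPM for Esrrb. In I-KO, Esrrg had 3.16, 3.73, 2.49 and 6.94 CPM, and I-KO 4 alone was above the lox/lox libraries. Its log2 fold change of 0.0013 was -0.24 without I-KO 4 and 0.073 without I-KO 1. The NR4A receptors are immediate early genes without a settled natural ligand. Nr4a1 had 3.62 ± 0.950 and 3.87 ± 0.719 CPM, Nr4a2 3.19 ± 0.510 and 3.25 ± 0.741 CPM, and Nr4a3 0.403 ± 0.0611 and 0.315 ± 0.0854 CPM in lox/lox (S.D., n = 3) and I-KO (S.D., n = 4). Without I-KO 1 the log2 fold change of Nr4a1 was -0.011, from 0.088, and that of Nr4a2 was 0.093, from 0.011.

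Between single mice, libraries I-KO 1 and I-KO 4 held many of the extremes. Library I-KO 1 was the lowest of all 7 for 12 of the 28 receptors (42.9%, against 19.3% of all tested genes), and the library labelled I-KO 4 was the highest for 11 (39.3%, against 19.8%). With median-of-ratios size factors the counts were again 12 and 11, and with column totals 13 and 14. Low in I-KO 1 were, among others, Hnf4a, Hnf4g, Vdr, Nr3c1, Nr1i2 and Nr1d2, and the same library was highest for Nr2f6, Nr0b2, Nr4a1 and Esrra. Across all genes, I-KO 1 also stood apart by base composition, and both libraries lay at an end of the range by length. The GC index of a library, the median log2 deviation of the fifth of genes with the most GC-rich transcripts (56.0% or more) minus that of the fifth with the least (44.5% or less), was 0.27 in I-KO 1 and between -0.11 and 0.05 in the others. It was -0.099 in I-KO 4, close to -0.11 in lox/lox 3. The length index, in which genes with transcripts of 5150 bases or more were set against those of 1814 or fewer, was lowest in I-KO 1 (-0.14) and highest in I-KO 4 (0.14) and lox/lox 3 (0.13).

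**Figure D4:**
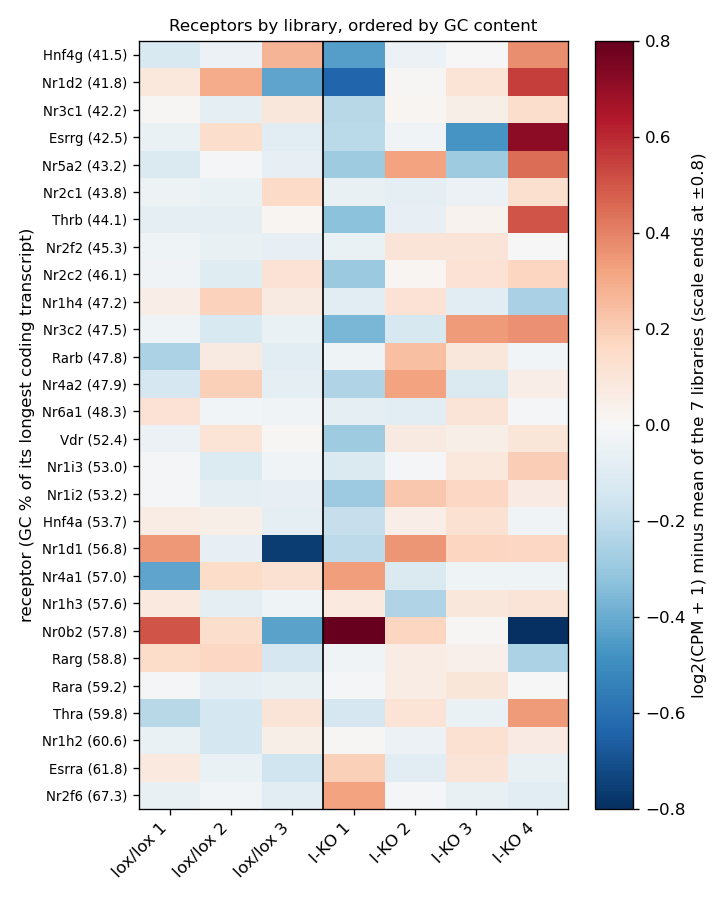
Deviation of each of the 28 tested receptors in each library from its mean over the 7 libraries, on log2(CPM + 1), with receptors ordered from low to high GC content of the transcript. Red is above and blue below the mean, and colours end at ±0.8; I-KO 1 is blue in the upper, GC-poor rows and I-KO 4 is red in most of them.

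The receptors moved with both properties. Across the 28 receptors the deviation in I-KO 1 had a Spearman rho of 0.70 with transcript GC content, against 0.49 over 12368 genes, and of -0.61 with transcript length, against -0.25. In I-KO 4 the rho was -0.61 with GC content, against -0.20, and 0.50 with length, against 0.26. These are descriptions across genes that share a library and are not independent. Of the 18 receptors with a GC content below 55%, a limit set after the values were seen, 0 were above their mean in I-KO 1 and 14 were above it in I-KO 4. Of the 10 with 55% or more, 6 were above in I-KO 1 and 5 in I-KO 4. What part base composition, length or the acinar and muscle transcripts of I-KO 1 had in single receptors was not tested beyond a fit with each index as a covariate. With the GC index as a covariate, an alternative chosen after seeing the data, 3 receptors passed an unadjusted p of 0.05 by limma, Thra (log2 fold change 0.31), Thrb (0.31) and Nr0b2 (-0.73), and the smallest adjusted p of a receptor was 0.675. In that fit 6.75% of all genes passed the same threshold.

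**Figure D5:**
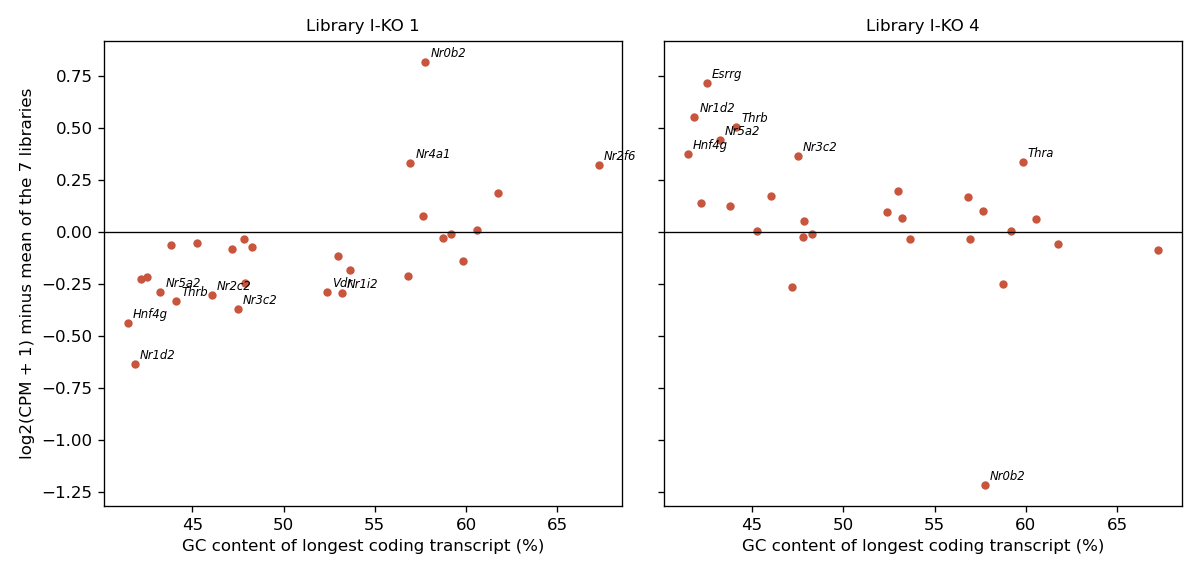
Deviation of the 28 tested receptors from their mean over the 7 libraries, on log2(CPM + 1), in library I-KO 1 (left) and in I-KO 4 (right), against the GC content of the longest coding transcript in percent. Each point is 1 receptor, those far from 0 are named, and the points rise with GC content in I-KO 1 (rho 0.70) and fall in I-KO 4 (rho -0.61).

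Hnf4g and Nr0b2 were set side by side after their values were seen. Their 7 libraries stood in exactly reversed order, from I-KO 4 to I-KO 1 for Hnf4g and from I-KO 1 to I-KO 4 for Nr0b2, with lox/lox and I-KO libraries mixed between. Of all tested genes 15, Nr0b2 included, were in the reverse order to Hnf4g (0.112%), and 8 others were in its own order. The genes in reverse order had short transcripts, with a median of 897.5 bases over the 14 with a transcript in the annotation, and those in the same order had long ones (median 4812.5 bases). The median over all genes was 3145 bases, and Nr0b2 has 1132 bases and Hnf4g 2327.

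Known targets, partners and coregulators of the receptors were read as well. Among 119 tested genes of 15 such lists, the receptors themselves left out, the log2 fold change was positive for 63 and negative for 56, and its median was 0.024. By limma 1 passed an adjusted p of 0.05 and 10 an unadjusted p of 0.05, and 10 did not overlap between groups, where these shares over all genes were 0.0299%, 4.74% and 6.19%. The counts and medians of single lists below, in contrast, keep the receptors that stand on them. These are Nr0b2 for FXR and NR5A2, Nr1h3 for LXR, Rarb for retinoic acid and Esrra for ERR. The gene that passed was Me1, malic enzyme, a target of the thyroid hormone receptors and of PPARα alike, with 39.2, 29.7 and 42.6 CPM in lox/lox and 13.3, 14.7, 12.8 and 18.0 CPM in I-KO (log2 fold change -1.28, adjusted p = 0.0456 by limma). The call was lost in 4 other fits, with an adjusted p from limma of 0.0722 with the pseudocount of 0.5, 0.0762 with column totals, 0.184 with the replicate number as a block and 0.223 with the GC index. It was also lost without lox/lox 1, lox/lox 3, I-KO 1, I-KO 2 or I-KO 3. The other 5 tested thyroid hormone targets did not pass, and of all 6 there were 2 higher and 4 lower, with Alpi, intestinal alkaline phosphatase, at 0.31 (interval -0.085 to 0.71), 0.11 without lox/lox 3 and 0.50 without lox/lox 1.

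For HNF4, 8 of 12 targets were higher and 4 lower, with a median of 0.10 and 0 at an unadjusted p of 0.05. Fabp2, the enterocyte fatty acid binding protein, had a log2 fold change of -0.26 (interval -0.60 to 0.068), and -0.13 without I-KO 2. For LXR, 5 of 10 targets were higher and 5 lower (4 and 6 with column totals), with a median of -0.022. The median was 0.088 without lox/lox 3 and 0.091 without I-KO 2. Scd2, a fatty acid desaturase, had 139, 157 and 141 CPM in lox/lox and 98.3, 141, 117 and 101 CPM in I-KO, and passed at an unadjusted p only (log2 fold change -0.36, adjusted p = 0.954 by limma). The log2 fold change of Lpcat3, a phospholipid remodelling enzyme, was -0.19.

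For FXR, 3 of the 10 listed targets had no row (Fgf15, Fabp6 and Abcb11) and 2 were below the filter (Slc10a2 and Slc27a5), all of them known from ileum or liver. Of the 5 tested, 2 were higher and 3 lower, with a median of -0.13, which is the value of the receptor Nr0b2 itself. The median was 0.028 without I-KO 4 and 0.089 without lox/lox 1. Slc51b, a subunit of the basolateral bile acid exporter, had 74.3, 51.1 and 50.2 CPM in lox/lox and 46.9, 47.3, 49.9 and 41.1 CPM in I-KO. The groups did not overlap (log2 fold change -0.31, interval -0.64 to 0.012, exact permutation p = 0.0286, the smallest possible), though lox/lox 1 alone stood well above the rest, and without it the log2 fold change was -0.13. Nos2, inducible nitric oxide synthase, had 37.7, 167 and 68.4 CPM in lox/lox and 22.6, 40.3, 26.2 and 34.1 CPM in I-KO (log2 fold change -1.30, adjusted p = 0.929 by limma), and lox/lox 2 was the library that stood apart, without which the log2 fold change was -0.74.

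For PXR and CAR, 8 of 12 targets were higher and 4 lower, with a median of 0.12. Without I-KO 4 the split was 6 and 6, with a median of -0.034. Cyp2b10, the drug-metabolising enzyme by which CAR activity is commonly read, had 268, 254 and 289 CPM in lox/lox and 432, 305, 435 and 476 CPM in I-KO. Its groups did not overlap and its log2 fold change was 0.59 (SE 0.15, adjusted p = 0.761 by limma), past an unadjusted p of 0.05 only. Cyp3a13 was at 0.29 (interval -0.039 to 0.62). For the vitamin D receptor, Cyp24a1 and Trpv6 had no row. The 5 tested targets had a median of 0.12, with 3 higher and 2 lower and 0 at an unadjusted p of 0.05. Their median was -0.043 without lox/lox 3. The calcium pump gene Atp2b1 was at 0.18 and the claudin gene Cldn2 at -0.25, with intervals that include 0. With a library left out, Atp2b1 was between 0.075 (without lox/lox 3) and 0.32 (without lox/lox 1), and Cldn2 was at -0.066 without I-KO 3.

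Of the 8 tested retinoic acid targets, 4 were higher and 4 lower, and the 2 at an unadjusted p of 0.05 lay in opposite directions. Bcmo1, which cleaves β-carotene to vitamin A, had 10.5, 5.10 and 14.9 CPM in lox/lox and 54.9, 51.0, 15.9 and 54.4 CPM in I-KO (log2 fold change 1.97, adjusted p = 0.686 by limma). Isx, the homeobox repressor that retinoic acid induces and that represses Bcmo1, had 153, 154 and 129 CPM in lox/lox and 96.9, 119, 116 and 85.4 CPM in I-KO (log2 fold change -0.48, adjusted p = 0.791 by limma). Neither gene overlapped between groups, although I-KO 3 of Bcmo1 was close to lox/lox 3. Neither passed over all genes.

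The clock list of ROR and REV-ERB targets and partners had 8 of 14 higher and 6 lower and 0 at an unadjusted p of 0.05, with Tef at 0.26 and Hlf at 0.25, both output factors of the clock. They were at 0.13 without lox/lox 3 (Tef) and at 0.15 without I-KO 4 (Hlf). Of 9 glucocorticoid and mineralocorticoid targets, 6 were higher and 3 lower. Zbtb16, a zinc finger gene that glucocorticoids induce, had 1.97, 1.24 and 1.73 CPM in lox/lox and 2.25, 2.24, 2.91 and 2.77 CPM in I-KO, without overlap (log2 fold change 0.43, adjusted p = 0.822 by limma), and Dusp1 was at 0.18, and at 0.012 without lox/lox 1. All 4 tested NR5A2 targets were lower, Ccnd1 at -0.28 (adjusted p = 0.791 by limma) and Scarb1, an HDL receptor, at -0.057. The direction was not stable, with 2 higher and 2 lower without lox/lox 1 and again without I-KO 4. Of 11 ERR targets 5 were higher and 6 lower (4 and 7 with column totals). Pdk4, which limits pyruvate oxidation and is also a PPARα target, had 29.8, 21.02 and 59.2 CPM in lox/lox and 13.03, 11.6, 15.5 and 27.9 CPM in I-KO (log2 fold change -1.02, adjusted p = 0.954 by limma), while Acadm was at -0.13. Library lox/lox 3 was the highest for Pdk4, and without it the log2 fold change was -0.61.

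All 8 immediate early partners of NR4A had positive log2 fold changes, from 0.15 to 0.30 with a median of 0.22, also with column totals, but 0 passed at an unadjusted p of 0.05. With a library left out all 8 stayed positive, at a median of 0.15 without I-KO 1. Genes of the smooth muscle, fibroblast, endothelial and macrophage marker lists also had mostly positive log2 fold changes. They were 7 of 8 smooth muscle (median 0.12), 6 of 7 fibroblast (0.19), 6 of 7 endothelial (0.14) and 4 of 5 macrophage genes (0.15). Without I-KO 1 these medians were 0.029, 0.15, 0.052 and 0.14. Higher and lower genes were 6 and 3 for epithelium (median 0.074) and 3 and 2 for B and plasma cells (0.042). They were 3 and 4 for crypt (-0.00050), 2 and 4 for T cells (-0.027), 3 and 3 for enteric neuron and glia (-0.00051) and 0 and 3 for adipocytes (-0.21). The summed levels overlapped between genotypes, from 1144 to 1405 CPM in lox/lox and 1173 to 1640 CPM in I-KO for smooth muscle and from 173 to 248 CPM and 221 to 273 CPM for macrophages. Their part in the immediate early genes was not tested. Fos had 125, 140 and 123 CPM in lox/lox and 165, 122, 167 and 160 CPM in I-KO, and I-KO 2 was the library that lay with the controls. Jun was at 0.25, and at 0.15 without I-KO 3. Of 20 coregulators, 7 were higher and 13 lower (3 and 17 with column totals), with a median of -0.028 and 0 at an unadjusted p of 0.05. The split was 10 and 10 without I-KO 1 and also without lox/lox 1. Lcor, a ligand-dependent corepressor, was at -0.26 (interval -0.52 to 0.0026), and Tbl1xr1, an exchange factor of the corepressor complex, at -0.16, and at -0.10 without I-KO 1.

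Among the receptors outside the list, 5 PPAR and RXR genes were tested, with 3 higher and 2 lower (1 and 4 with column totals), and Rxrg had no row. Pparg, the adipogenic paralogue of Ppara, had 16.6, 15.9 and 11.9 CPM in lox/lox and 19.7, 18.1, 18.1 and 20.4 CPM in I-KO, without overlap (log2 fold change 0.36, adjusted p = 0.954 by limma), and it was at 0.21 without lox/lox 3. Ppara itself was at -0.25 (interval -0.75 to 0.25), at -0.099 without I-KO 1 and at -0.45 without I-KO 4. Nr2e3, an orphan receptor outside the list, was at -0.037, and Esr2, Nr2e1, Nr5a1, Nr0b1 and Nr1h5 had no row.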

How the data were processed

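Duodenal RNA of 7 mice was sequenced from TruSeq stranded mRNA libraries as 100 base single reads. The processing notes of the submitters name TopHat2 2.0.13, HTSeq 0.6.1, Picard 1.80, FastQC 0.11.2, edgeR and the mm10 genome, and the strand setting of the counting is not given in the sources used here. The authors deposited 1 table of signal values, namely normalised counts (CPM on library sizes they had adjusted) with 2 decimals, for 14795 genes. One line without a gene name was dropped. The low values of each library lie on steps of 1 read, from which depth was taken (between 20745155 and 25865823 reads), but whole reads were not recovered closely enough in all libraries for a count test. The planned tests with edgeR and DESeq2 were therefore not run, and limma was used as the unit requires.

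The 13399 genes above 1 CPM in 3 or more libraries entered a limma fit of log2(value + 1) on genotype (limma version 3.58.1 under R 4.3.3), with two-sided p-values and Benjamini-Hochberg adjustment at 0.05. Single genes were also tested by exact permutation of the difference in mean log2(value + 1) over 35 regroupings. The fit was tested on simulated data first. Exon lengths, transcripts and gene overlaps came from GENCODE M21 (GRCm38, the assembly of mm10; 13922 symbols matched), and promoters from RefSeq. GC content and length are those of the longest coding transcript.

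The receptors, the target and marker lists and the alternatives were chosen with earlier results of these data known. By rule, every receptor has a level, and values of every library are given for the 10 highest in CPM, those whose groups did not overlap, those past an unadjusted p of 0.05 and Nr1h4, and from each target list those past the adjusted threshold and up to 2 with the smallest p. Further receptors were given in full after their values were seen. Alternatives were 2 other scalings, no filter, a pseudocount of 0.5, an intensity trend, sample quality weights, a block on the replicate number and leaving out each library in turn, and, chosen after seeing the data, a length or GC index as a covariate. Replicates of a genotype differed by more than sampling noise (lowest chi-square 13.5 per degree of freedom). The labels number the replicates, and each is taken as 1 mouse from the methods. Tables were handled in pandas 2.3.3 and numpy 2.4.6 under Python 3.11.15, and plots drawn with matplotlib 3.10.9. Some genes that the naming rule covers are not reported here.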

Additional observations from a re-analysis of the deposited data

Results flagged for a closer look

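In 5 of 34 receptors, 1 of the 4 I-KO libraries lay far from the other 3, by the gap to its nearest neighbour as a share of the whole range (Dixon's ratio, above its 95% critical value). Chance alone gives such a gap in about 1 of 20 groups, and 5.06% of all tested genes had one. That share covers tested genes only, while the 34 receptors include those below the filter, Esr1 among them. In Vdr, the vitamin D receptor, I-KO 1 was low, with 349 CPM where the others had 439 to 455 CPM (ratio 0.849). In Nr1h3, which encodes LXRα, I-KO 2 was low at 45.1 CPM against 56.4 to 57.4 CPM (ratio 0.919). In Nr2c1, an orphan receptor, I-KO 4 was high at 12.98 CPM against 11.1 to 11.4 CPM (ratio 0.855). In Nr4a1, an immediate early receptor, I-KO 1 was high at 4.93 CPM against 3.34 to 3.60 CPM (ratio 0.836). In Esr1, the oestrogen receptor, I-KO 4 was low at 0.210 CPM against 0.570 to 0.640 CPM (ratio 0.837), a matter of a few reads.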

How the results depend on the processing

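Under every alternative run, 0 of the 28 receptors passed an adjusted p of 0.05 by limma (smallest adjusted p of a receptor 0.654, with the replicate block), and the order by level kept its 10 highest genes with column totals. The planned edgeR quasi-likelihood and DESeq2 tests were not run, since whole reads were not recovered. The count at an unadjusted p of 0.05 was 3 with the GC index as a covariate, 1 with the length index (Thra) and 1 with the replicate block (Esrrg), where 6.75%, 6.87% and 7.58% of all genes passed. It was between 0 and 1 with a library left out (3.22% to 6.84% of all genes), namely Nr1d1 without lox/lox 1, Nr1i2 without I-KO 1 and Nr1h4 without I-KO 2. The count without overlap was 0 with median-of-ratios size factors and with column totals, for which the share over all genes is not given here. It was between 1 and 4 with a library left out, namely 2 without lox/lox 1 (Rara and Nr2f2), 2 without lox/lox 2 (Rara and Rarb), 4 without lox/lox 3 (Nr1h2, Thra, Rara and Rarg), 4 without I-KO 1 (Nr1i2, Nr1i3, Rara and Nr2f2) and 2 without I-KO 2 (Rara and Nr1h4), against 11.9%, 10.9%, 15.8%, 10.2% and 11.1% of all genes. The count of target genes called was 0 with column totals, the pseudocount of 0.5, the GC index and the replicate block, and between 0 and 1 with a library left out, where it was 0 without lox/lox 1, lox/lox 3, I-KO 1, I-KO 2 or I-KO 3. Adjusted p of Me1 was 0.0762, 0.0722, 0.223 and 0.184 in those 4 fits, and its log2 fold change was between -1.43 and -1.18 with a library left out. The same-numbered libraries had correlations of -0.014, 0.18 and -0.0092, inside the range of unlike-numbered ones (-0.35 to 0.28). They gave no sign that the numbers pair the mice, but so few libraries cannot exclude it. The replicate block, which also drops I-KO 4 from the comparison, changed no adjusted call of a receptor. The signs of small differences turned, and the cause was not tested. With the replicate block they were Nr5a2 -0.017, Nr1h3 -0.012, Thrb -0.079, Nr1d2 -0.16, Nr2c2 -0.054, Esrrg -0.24, Nr4a2 -0.0061 and Nr0b2 0.26. With the GC index they were Hnf4a 0.030, Hnf4g 0.19, Nr1h3 -0.010, Vdr 0.086, Nr2c1 0.018, Nr2f6 -0.034, Nr3c1 0.10, Esrra -0.018, Nr4a1 -0.019, Nr2e3 0.020 and Ppara 0.044. With column totals, which move the median of all genes to -0.032, they were Nr1h3 -0.018, Nr1d2 -0.014, Nr2c2 -0.033, Esrrg -0.024 and Nr4a2 -0.017. With quality weights they were Nr1h3 -0.031, Nr1d2 -0.086, Nr3c1 0.035, Esrrg -0.069 and Nr4a1 -0.033, with the length index Nr3c1 0.0055 and with the pseudocount of 0.5 Esrrg -0.0062. With a library left out the ranges that crossed 0 were -0.24 to 0.16 for Esrrg, -0.066 to 0.036 for Hnf4a, -0.20 to 0.074 for Hnf4g, -0.42 to 0.26 for Nr0b2, -0.019 to 0.54 for Nr1d1, -0.18 to 0.24 for Nr1d2, -0.014 to 0.10 for Nr1h3, -0.084 to 0.031 for Nr2c1, -0.054 to 0.10 for Nr2c2, -0.17 to 0.13 for Nr2e3, -0.062 to 0.060 for Nr3c1, -0.10 to 0.18 for Nr4a1, -0.10 to 0.11 for Nr4a2, -0.017 to 0.23 for Nr5a2, -0.076 to 0.0093 for Nr6a1, -0.21 to 0.070 for Scarb1, -0.079 to 0.20 for Thrb and -0.081 to 0.047 for Vdr. The 6 receptors under the filter rested on 3 to 23 reads a library, so counting error limits them. Some tested receptors also rested on few reads, such as Rarb on 27 to 58 and Nr1d1 on 26 to 86 a library. For the tested receptors, counting error was not separated from the spread between mice.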
